A study of Mus musculus with 28 samples.

Results

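Spermatids of *Csmd1* knockout and wildtype mice were compared by RNA-seq, using the 5 libraries labelled spermatid of the 28 libraries of the series analysed here. The knockout libraries came from mice 286 and 544 (*Csmd1*-/-) and the wildtype libraries from mice 178, 351 and 648, with 1 library per mouse, so that the mouse is the replicate. The labels give the strain of all 5 males as C57BL/6. The methods describe a colony on a mixed 129SvEvBrd:C57BL/6 background, bred from heterozygous parents, in which a lacZ and neomycin cassette replaces exon 1 and part of intron 1 in every cell of the animal. Males of 40 ± 1 days were used for sorting, by the methods, which do not name the mice. The labels give no treatment. Germ cells were sorted live by Hoechst fluorescence from dissociated testis, and polyadenylated RNA was sequenced. The members of the comparison are all 5 spermatid libraries and the 20655 genes whose mean over them reached 0.1 RPKM, and nothing measured was used to choose the libraries. RPKM, reads per length of transcript and depth of library, is a level per length, summed here over the transcripts of a gene.

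Spermatids are the haploid cells that meiosis leaves behind. Round spermatids build the acrosome, the enzyme vesicle of the sperm head, and the axoneme of the tail. Elongating spermatids then replace their histones with transition proteins (*Tnp1*, *Tnp2*) and next with protamines (*Prm1*, *Prm2*), which pack the sperm nucleus. *Csmd1* encodes a membrane protein made of CUB and Sushi domains, the second of which is a module shared with regulators of complement.

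The 5 libraries did not hold cells of the same step. *Prm1*, the first protamine, measured 2579 RPKM in wildtype 178, 1299 in wildtype 351 and 930 in knockout 544, but 0.58 in wildtype 648 and 2.14 in knockout 286. *Tnp1*, a transition protein gene, gave 1659, 1868 and 2378 RPKM in the same first 3 libraries and 11.5 and 5.68 in the other two. The defining transcripts of elongating spermatids were therefore nearly absent from 1 library of each genotype, which goes against the spermatid label for late steps. *Sycp3*, of the meiotic synaptonemal complex, ran the other way, with 79.1, 60.1 and 28.6 RPKM in 178, 351 and 544, and 653 in 648 and 352 in 286. *Acrv1*, an acrosomal protein of round spermatids, was present in all 5 libraries at 47.9 to 173 RPKM. Across genes, Pearson's r on the log2 scale was 0.945 to 0.96 among 178, 351 and 544, 0.945 between 648 and 286, and 0.757 to 0.837 across these sets. Genotypes were therefore also compared like with like by *Prm1*: knockout 544 against wildtype 178 and 351 (the later comparison), and knockout 286 against wildtype 648 (the earlier comparison).

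**Figure D1:**
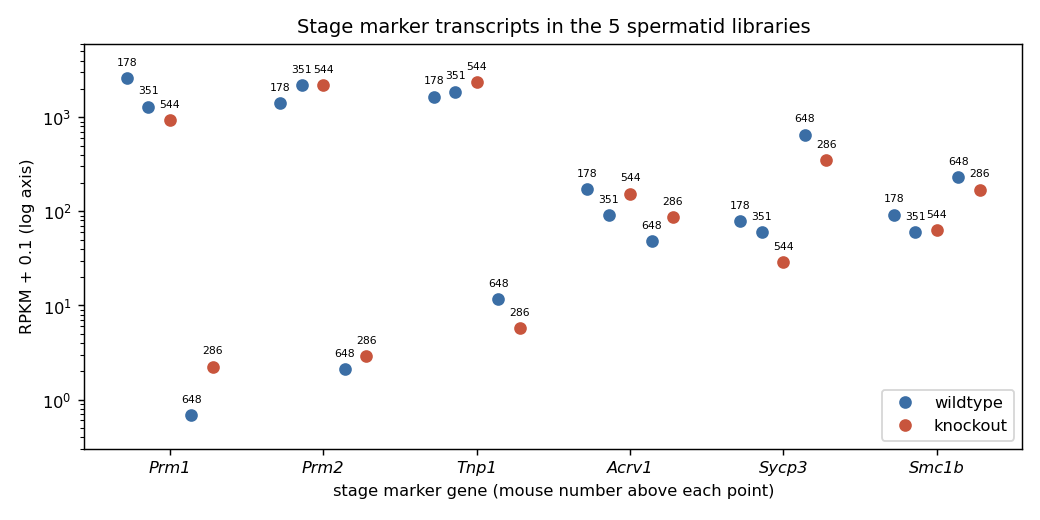
RPKM plus 0.1 on a log axis for 6 stage marker genes, 1 point per library with the mouse number above it, wildtype in blue and knockout in red. *Prm1*, *Prm2* and *Tnp1* lie at 930 RPKM or more in mice 178, 351 and 544 and at 11.5 RPKM or less in 648 and 286, while *Sycp3* is higher in 648 and 286.

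Markers of other cells were low but unequal. Summed over 4 Sertoli markers, the level was 2.74 to 10.99 RPKM in 4 libraries and 33.4 in knockout 286, with *Wt1* at 31.6 RPKM there, *Sox9* at 1.64 and *Rhox5* at 0 in all 5. The 4 peritubular and stromal markers summed to 23.2 RPKM in 286 and to 2.41 to 5.01 elsewhere. The 4 Leydig markers summed to 11.2, 7.36 and 2.64 RPKM in wildtype 178, 351 and 648 and to 4.27 and 1.71 in knockout 544 and 286, so the knockout was lower within each like-with-like comparison. In bulk samples, fewer cells of a type and less RNA per cell cannot be told apart. Estimated mapped reads were 43409080, 23820400 and 51547660 in wildtype 178, 351 and 648 and 46727840 and 48847460 in knockout 544 and 286. The transcripts that lack a value form 1 set of 865 in libraries 178, 351 and 286, another of 1411 in 544 and one of 2828 in 648, and these sets are partly confounded with genotype. Within each like-with-like comparison knockout and wildtype are of different sets, so set and genotype cannot be told apart there. No label says what the sets stand for. The row of *Csmd1* itself, at 1.66, 0.575 and 0.18 RPKM in wildtype 178, 351 and 648 and 6.33 and 1.21 in knockout 544 and 286, sums transcripts that reach beyond the deleted exon and does not check the labels. In knockout testis the paper reports reduced reads over most exons of the gene and raised reads over the last ones. Single exons were not measured here.

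No gene separated the genotypes at an adjusted p of 0.05. In a limma fit on quantile-normalized log2(RPKM + 0.1) with Benjamini-Hochberg adjustment, 0 of 20655 genes passed in either direction (0%), and 87 genes (0.421%) were higher and 54 (0.261%) lower in the knockout at an unadjusted p of 0.05. Both knockout values lay above all 3 wildtype values on the normalized scale in 958 genes (4.64%) and below them in 731 (3.54%). With the *Prm1* class of each library as a further term, 0 genes passed and 903 (4.37%) had an unadjusted p under 0.05, the smallest limma adjusted p being 0.292, for *Gm8730*. With 2 against 3 mice, the exact two-sided permutation test of a single gene cannot go below p = 0.1, the value it gave for *Grtp1*, *Gm8730*, *Defb11*, *Slc26a10*, *Ins2* and *Mir410*. The genes below are named by rank and by their values, and differences between single libraries carry no test.

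Among genes with a mean of 1 RPKM or more, the 3 with the smallest p on the lower side, *Gm8730*, *Grtp1* and *Defb11*, lie on chromosome 8, which also carries *Csmd1*. *Grtp1* encodes growth hormone regulated TBC protein 1, of a family that acts on Rab GTPases. It measured 3.01, 8.04 and 3.12 RPKM in wildtype 178, 351 and 648 and 0.033 and 0.031 RPKM in knockout 544 and 286. Its best covered transcript held 166, 244 and 205 reads in the wildtype libraries and 2 reads in each knockout library. The genotypes thus did not overlap, in the later as in the earlier libraries. The mean was 4.73 ± 2.87 RPKM (SD, n = 3) in wildtype and 0.032 ± 0.0014 (SD, n = 2) in knockout. The difference on the log2(RPKM + 0.1) scale was -5.21 with a standard error of 0.75, with an unadjusted p of 0.000217 and a limma adjusted p of 1.

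*Gm8730*, annotated as a processed pseudogene, gave 8.74, 17.8 and 12.7 RPKM in wildtype 178, 351 and 648 and 0.179 and 0.076 RPKM in knockout 544 and 286. All 3 wildtype libraries were far above both knockout libraries, by a log2 difference of -5.95 with a standard error of 0.68 (unadjusted p 5.12e-05, limma adjusted p 1). A processed pseudogene resembles the spliced mRNA of its parent gene, so reads may have been split between the copies, and the level is uncertain. *Defb11*, a beta-defensin, measured 3.49, 3.71 and 0.857 RPKM in wildtype 178, 351 and 648 and 0.135 and 0 RPKM in knockout 544 and 286. The lowest wildtype value, in early library 648, was still above both knockout values. The log2 difference was -4.03 with a standard error of 0.82, with an unadjusted p of 0.00171 and a limma adjusted p of 1.

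The promoters of *Grtp1* and *Defb11*, lower in the knockout on either side of *Csmd1*, and of *Slc26a10*, the gene with the smallest p on the higher side, are shown as RefSeq gives them on GRCm38.p6, from 250 bases before the gene's start to 50 after it and 5′ to 3′. Capitals mark the letters of a GC box (GGGCGG) or a TATA box (TATAAA) on either strand.
*Grtp1* promoter (chr8:13200575-13200874, minus strand): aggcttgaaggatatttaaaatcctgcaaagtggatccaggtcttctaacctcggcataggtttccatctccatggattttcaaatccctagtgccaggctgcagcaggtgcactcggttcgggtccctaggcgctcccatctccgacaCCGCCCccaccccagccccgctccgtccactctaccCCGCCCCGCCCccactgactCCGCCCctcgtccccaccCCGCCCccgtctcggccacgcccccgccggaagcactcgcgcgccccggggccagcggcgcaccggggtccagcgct
*Defb11* promoter (chr8:21906383-21906682, minus strand): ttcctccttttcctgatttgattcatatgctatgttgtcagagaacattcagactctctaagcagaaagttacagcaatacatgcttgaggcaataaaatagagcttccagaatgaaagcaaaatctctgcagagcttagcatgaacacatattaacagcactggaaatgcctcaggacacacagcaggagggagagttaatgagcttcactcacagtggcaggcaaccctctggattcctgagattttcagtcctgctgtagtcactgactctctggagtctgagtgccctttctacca
*Slc26a10* promoter (chr10:127180533-127180832, minus strand): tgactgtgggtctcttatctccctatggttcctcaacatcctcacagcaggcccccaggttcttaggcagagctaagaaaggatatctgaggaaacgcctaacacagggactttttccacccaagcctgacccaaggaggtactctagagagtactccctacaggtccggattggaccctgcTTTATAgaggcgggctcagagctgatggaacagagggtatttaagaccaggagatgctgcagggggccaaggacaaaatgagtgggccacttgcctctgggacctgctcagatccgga
The *Grtp1* window held 5 GC box matches, all on the opposite strand and with 1 pair that shares a base, and 67% of its bases were G or C. The *Slc26a10* window held 1 TATA box match on the opposite strand, and the *Defb11* window neither. Among 32851 promoter windows of the same length, 35.7% hold GGGCGG and 13.6% hold TATAAA on either strand. TGACGT, the half-site of the cAMP response element that CREM binds in spermatids, is in 7.51% of windows and in none of the 3 shown. The windows of the 3 genes thus shared none of these letters.

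The 3 genes with the largest log2 differences on the higher side were at or near 0 in most wildtype libraries. *Slc26a10*, of a family of anion transporters, measured 0.177, 0.019 and 0 RPKM in wildtype 178, 351 and 648 and 4.23 and 0.989 RPKM in knockout 544 and 286. Both knockout libraries were above every wildtype library, although they differed from each other by more than the wildtype libraries did. The log2 difference was 3.78 with a standard error of 0.88 (unadjusted p 0.00352, limma adjusted p 1). *Ins2*, one of the mouse insulin genes, gave 0.367, 0 and 0 RPKM in wildtype and 4.58 and 1.36 RPKM in knockout 544 and 286. Its best covered transcript held 12 and 2 reads in the knockout libraries and 0 in each wildtype library, so that transcript rests on few reads. The gene sum covers 8 transcripts, and reads of the others are not given here. With the top transcript alone the log2 difference of *Ins2* was 2.19, against 3.94 for the sum. *Defa29*, an alpha-defensin on chromosome 8, measured 1.95, 0 and 0 RPKM in wildtype 178, 351 and 648 and 4.97 and 4.96 RPKM in knockout 544 and 286. The knockout values were nearly equal, and 1 of the 3 wildtype libraries expressed the gene, at a lower level. Defensins form clusters of similar genes, so its reads may be shared with relatives.

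Some of the higher genes were well above 1 RPKM in every library. *Dtx1*, a Deltex ubiquitin ligase of Notch signalling, measured 2.73, 4.64 and 5.92 RPKM in wildtype 178, 351 and 648 and 16.6 and 18.5 RPKM in knockout 544 and 286. *Uros*, the uroporphyrinogen III synthase of haem synthesis, measured 5.90, 3.13 and 1.85 RPKM in wildtype and 16.3 and 10.9 RPKM in knockout. Wildtype and knockout did not overlap for either gene, at log2 differences of 1.89 (standard error 0.63) for *Dtx1* and 1.79 (standard error 0.63) for *Uros*. *Gm17178*, an antisense transcript on chromosome 11, gave 4.33 ± 1.31 RPKM (SD, n = 3) in wildtype and 17.0 ± 2.70 (SD, n = 2) in knockout. *Matk*, a kinase that acts on Src family kinases, had a log2 difference of 2.43 and *Il15ra*, the interleukin 15 receptor alpha chain, of 3.63. *Il15ra* was at 1.11 RPKM in wildtype 648 and at 0.02 and 0 in 178 and 351, and *Matk* was at 0.949 RPKM or less in wildtype. The limma adjusted p was 1 for each of these 5 genes.

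*Mir410*, a microRNA hairpin gene, measured 0.284, 0.518 and 0.239 RPKM in wildtype 178, 351 and 648 and 2.38 and 2.02 RPKM in knockout 544 and 286, from 1 read in each wildtype library and 9 and 8 reads in the knockout libraries. These are reads of polyadenylated RNA over the hairpin, not of the mature products, which are shown from RefSeq with the seed, bases 2 to 8, in capitals.
mmu-miR-410-5p: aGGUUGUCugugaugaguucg
mmu-miR-410-3p: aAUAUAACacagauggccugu
The mature products share no seed, and their levels were not measured.

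Of the lower genes named by p, *Cyp17a1* and *Cd74* are known from cells of the interstitium. *Cyp17a1*, which makes androgens in Leydig cells, measured 2.97, 2.39 and 0.961 RPKM in wildtype 178, 351 and 648 and 0.597 and 0.358 RPKM in knockout 544 and 286. *Cd74*, the invariant chain of MHC class II in antigen-presenting cells, measured 4.81, 0.764 and 0.382 RPKM in wildtype and 0.195 and 0 RPKM in knockout. Its class II partners *H2-Ab1* and *H2-Aa* overlapped between the genotypes, with *H2-Ab1* at 13.9, 4.54 and 3.99 RPKM in wildtype and 7.58 and 3.37 in knockout. The 4 macrophage markers summed to 4.68, 3.62 and 1.52 RPKM in wildtype 178, 351 and 648 and to 2.36 and 1.88 in knockout 544 and 286, so their sum was lower in the knockout of the later comparison and not of the earlier one. The summed Leydig markers given above, which include *Cyp17a1* itself, were lower in the knockout of both. Of the other markers in that sum, *Insl3* and *Star* were lower in the knockout of both comparisons. *Cyp11a1* went the other way in the earlier one, at 0 RPKM in 648 and 0.092 in 286. The part of these cells in the differences was not tested. *Med22*, a subunit of the Mediator complex, measured 7.68, 4.63 and 6.65 RPKM in wildtype and 2.62 and 2.29 RPKM in knockout, without overlap and at a log2 difference of -1.49 (standard error 0.56). *1700063H04Rik*, a long noncoding RNA, gave 4.18 ± 0.686 RPKM (SD, n = 3) in wildtype and 1.57 ± 0.0417 (SD, n = 2) in knockout. The other named genes of this group, *Rps15a-ps5*, *mt-Ti* and *mt-Tc*, had at most 81 reads in any library on their best covered transcript. The limma adjusted p was 1 for every gene of this group.

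**Figure D2:**
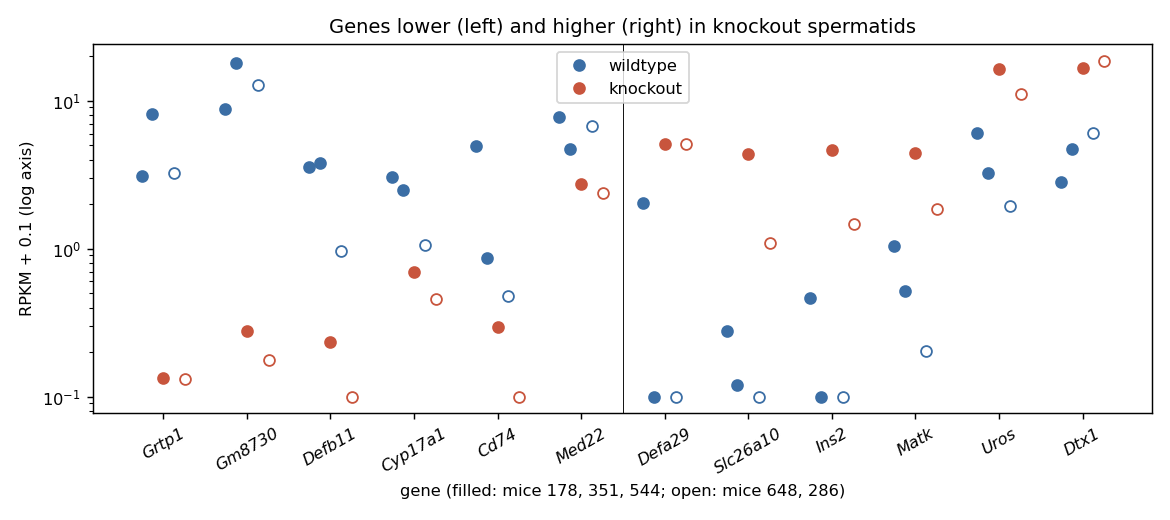
RPKM plus 0.1 on a log axis in each of the 5 libraries for 12 genes, wildtype in blue and knockout in red, with mice 178, 351 and 544 as filled points and 648 and 286 as open points. The 6 genes on the left have both knockout points below all wildtype points and the 6 on the right have them above.

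Like with like, far more genes differed in 1 of the comparisons than in both. Among 12947 genes with a mean of at least 1 RPKM, knockout 544 lay at least 1 log2 unit above the mean of wildtype 178 and 351, and beyond both, in 725 genes (5.6%) and below in 837 (6.46%). Knockout 286 lay at least 1 log2 unit above wildtype 648 in 1558 genes (12%) and below in 1123 (8.67%). In both comparisons 132 genes (1.02%) were higher and 79 (0.61%) lower, while 283 (2.19%) went opposite ways. Genes that disagreed were thus more numerous than genes that agreed. Without wildtype 351, 232 genes were higher and 127 lower in both, and on deposited values without quantile normalization, which move the median difference of all genes to 0.14, 215 were higher and 44 lower. Protein-coding genes made up 99 of the 132 and 45 of the 79, and 86.3% of the genes compared.

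**Figure D3:**
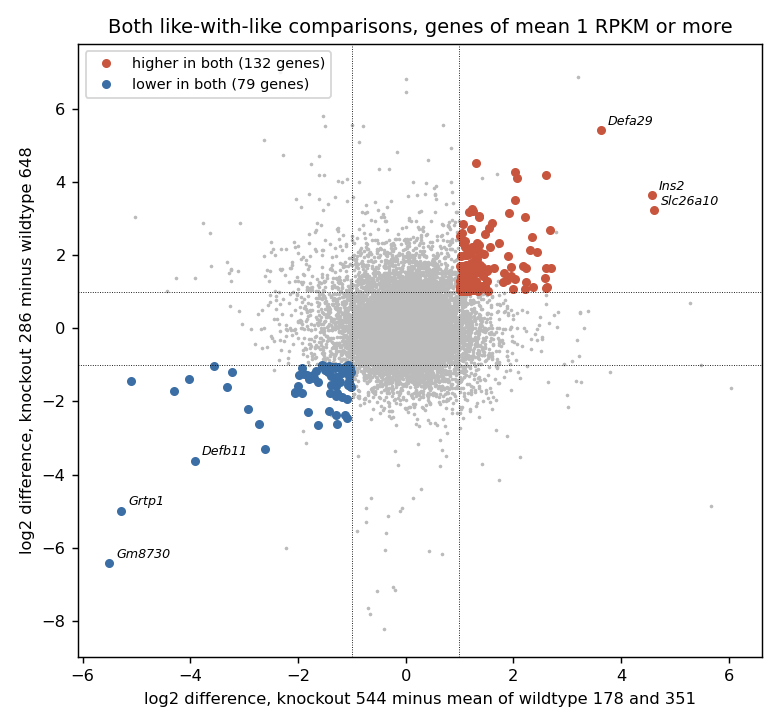
Log2 difference of knockout 286 from wildtype 648 against that of knockout 544 from the mean of wildtype 178 and 351, 1 point per gene with a mean of 1 RPKM or more, dotted lines at 1 log2 unit. Red points are the 132 genes higher and blue points the 79 genes lower in both, with *Gm8730*, *Grtp1* and *Defb11* farthest to the lower left.

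The genes highest in both comparisons were *Ins2*, *Defa29*, *Slc26a10* and *Matk*, each by at least 2.68 log2 units in both. *Psen2*, the catalytic subunit of a gamma-secretase, differed by 2.21 log2 units in the later and 3.05 in the earlier pair. *Lgi4*, a secreted protein known from peripheral nerve, differed by 2.06 and 4.12 log2 units, from 33 and 26 reads in the knockout libraries. Neither gene exceeded 4.88 RPKM in any library. Of the 12 named by rank, 4 were microRNA genes (*Gm25950*, *Gm23935*, *Mir410*, *Mir5620*), 1 was a small nucleolar RNA (*Gm26205*) and 1 a processed pseudogene (*Gm13831*). *Gm23935* ranged from 136 RPKM in wildtype 648 to 20246 in knockout 544, with 8331 in wildtype 351, so its values spread more within genotypes than between them.

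Among the abundant members, *Yipf1*, of a family of Golgi membrane proteins, measured 110, 188 and 44.9 RPKM in wildtype 178, 351 and 648 and 431 and 153 in knockout 544 and 286. *Ropn1*, ropporin of the sperm fibrous sheath, measured 247 and 230 RPKM in wildtype 178 and 351 and 787 in knockout 544, and 25.3 in wildtype 648 and 69.1 in knockout 286. *Pex16*, needed for peroxisome membranes, measured 27.1 and 33.1 RPKM against 86.3 in the late set and 4.07 against 26.7 in the early set. In all 3 genes the later libraries were above the earlier one of the same genotype, and the knockout was above the wildtype within each comparison. *Yipf1*, *Ropn1* and *Pex16* were named after their values were seen.

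Many of the genes also differed between the wildtype libraries. There, 87 of the 132 higher genes (65.9%) were at least 1 log2 unit above library 648 in both 178 and 351, against 20.5% of all 12947 genes. Of the 79 lower genes 35 (44.3%) were at least 1 log2 unit below 648 in both, against 17.6%. These libraries also chose the genes, so the shares are a description. The 4 primary spermatocyte markers, summed, were lower in the knockout of each comparison too, at 110 RPKM in 544 against 235 and 153 in 178 and 351, and at 749 in 286 against 1171 in 648. *Sycp3* made up most of the sum in 648, at 653 RPKM. *Sycp1* went the other way in the earlier comparison, at 73.7 RPKM in 286 and 52.7 in 648, and *Smc1b* was at 62.7 RPKM in 544, not below the 60 in 351. The part of these step differences in the 132 and 79 genes was not tested.

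Lower in both comparisons were *Gm8730*, *Grtp1*, *Defb11*, *Cd74* and *Cyp17a1*, described above, and the mitochondrial transfer RNA genes *mt-Tc*, *mt-Ty* and *mt-Tp*. Of 15 mitochondrial transfer RNAs compared, 6 were lower in both and 0 higher, where 0.61% and 1.02% of all genes were, and these 6 had at most 9 reads in either knockout library. *mt-Tc* measured 2.79, 2.54 and 12.9 RPKM in wildtype 178, 351 and 648 and 0.324 and 1.55 in knockout 544 and 286, from 1 and 5 reads in the knockout libraries. *mt-Ty* measured 5.5, 1.88 and 10.1 RPKM in wildtype and 0.319 and 2.75 in knockout. The 13 mitochondrially encoded messenger RNAs did not share that direction, with a median log2 difference of -1.26 in the later and 0.67 in the earlier comparison. *Blmh*, bleomycin hydrolase, measured 13.2, 9.86 and 16.6 RPKM in wildtype and 4.72 and 8.24 in knockout, without overlap. *Sgo2a*, shugoshin of the meiotic centromere, and *Spata4*, a testis gene, were lower in both comparisons by at least 1.05 log2 units while their genotypes overlapped. *Blmh*, *Sgo2a* and *Spata4* were named after their values were seen.

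Around *Csmd1*, the knockout allele travels with its stretch of chromosome 8, so the deletion and its flanks cannot be told apart in these libraries. Within 10 Mb on either side of the gene (GRCm38 chromosome 8, 15892537 to 17535586), 331 genes are annotated and 170 were tested, and 105 were at 0 in all 5 libraries. None passed the adjusted threshold, 1 was higher and 4 were lower at an unadjusted limma p under 0.05 (0.421% and 0.261% of all genes), and 9 were higher and 11 lower without overlap (4.64% and 3.54% of all genes). The 9 in 170 are near the share of all genes. The median log2 difference was -0.1, and 0 for all genes, and it was 0.05 on deposited values where all genes had 0.14. Of the 170 tested, 2 were higher in both like-with-like comparisons (*Defa29*, *Myom2*) and 4 lower (*Grtp1*, *2610005L07Rik*, *Gm21092*, *Defb11*). Only genes with a mean of at least 1 RPKM could be called, and 1.02% of all such genes were higher and 0.61% lower. These flanking genes all lie within 5 Mb, as do the 4 lower genes with an unadjusted p under 0.05. The whole of chromosome 8 held 6 of the 132 higher and 8 of the 79 lower genes, with 5.07% of the genes compared.

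*Grtp1* (13172022 to 13200620) lies 2.69 Mb before *Csmd1*, and *Defa29* (21325887 to 21327020) and *Defb11* (21905376 to 21906412) lie 3.79 and 4.37 Mb after it, in the defensin cluster. *Nek3*, a NIMA-related kinase gene 4.59 Mb after *Csmd1*, measured 0.65, 0.654 and 0.895 RPKM in wildtype 178, 351 and 648 and 0 and 0.246 in knockout 544 and 286, a log2 difference of -2.3 with a standard error of 0.78. *Myom2*, an M-band protein of striated muscle 0.76 Mb before *Csmd1*, measured 1.65, 1.54 and 0.558 RPKM in wildtype and 3.19 and 2.48 in knockout. *Gm27854*, a small RNA gene 4.2 Mb before *Csmd1*, had a log2 difference of -1.63. *Ikbkb*, a kinase of NF-kappa B signalling 5.12 Mb after *Csmd1*, was at 10.1 to 12.7 RPKM in wildtype and 16.4 and 19.03 in knockout, a log2 difference of 0.47, and is 1 of the 9 higher genes, named after its values were seen. *Gm8730* (102864845 to 102865798) is on the same chromosome but outside the interval.

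**Figure D4:**
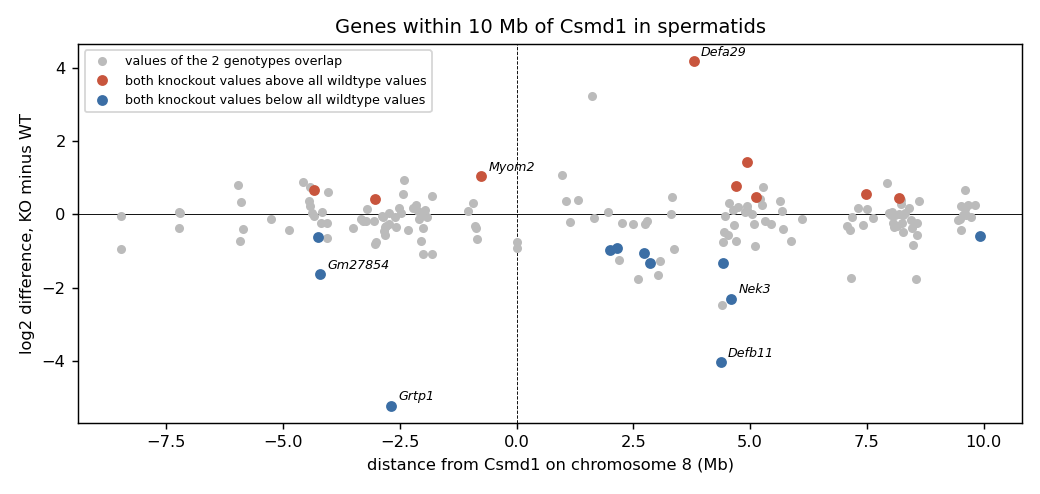
Log2 difference between knockout and wildtype spermatids for the 170 tested genes within 10 Mb of *Csmd1*, against distance from the gene in Mb, with genes whose genotypes do not overlap in red (9 higher) or blue (11 lower). *Grtp1*, *Defb11* and *Defa29* lie beyond 4 log2 units of 0, and the median of the 170 genes is -0.1.

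A short list of candidate genes for a difference between 129 and C57BL/6 strains held 5 tested genes. *Entpd4*, an ectonucleotidase, was listed at 0 in all 3 wildtype libraries and measured 0.581 and 0.467 RPKM in knockout 544 and 286. The others did not separate the genotypes, and the list's median log2 difference was 0.29. *Trim30a*, a TRIM protein gene on chromosome 7, had the same form at 0.012, 0 and 0.021 RPKM in wildtype and 1 and 0.628 in knockout, and was named after its values were seen. Which parental alleles the mice carry was not measured.

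The programme of the spermatid itself showed no gene past the threshold. Counts without overlap in the lists that follow are read against 4.64% of all genes on the higher and 3.54% on the lower side. Of 17 tested genes of late spermatids none separated the genotypes, and their median log2 difference was -0.22, or 0.23 and 0 in the later and earlier like-with-like comparison. *Odf2*, of the outer dense fibres of the tail, was the most abundant, at 18645 ± 7042 RPKM (SD, n = 3) in wildtype and 18852 ± 8573 (SD, n = 2) in knockout. Of 17 acrosomal and round spermatid genes 1 was higher without overlap, *Acrbp*, which binds proacrosin, at 1365, 1283 and 2108 RPKM in wildtype 178, 351 and 648 and 2169 and 2296 in knockout 544 and 286. Of 19 transcription and RNA regulators 1 was higher, the TFIID subunit gene *Taf7l*, at 34.1, 33.7 and 39.9 RPKM in wildtype and 53.3 and 97.3 in knockout. *Crem*, the cAMP-dependent activator of postmeiotic genes, differed by -0.21 log2 units with a standard error of 0.45.

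Of 28 axoneme and flagellum genes 2 were lower without overlap, *Cfap44* at 168 to 217 RPKM in wildtype and 122 and 167 in knockout, and *Spag17* of the central pair, and 0 were higher. *Spag17* separated only after normalization, since its RPKM was 176, 144 and 417 in wildtype 178, 351 and 648 and 145 and 191 in knockout 544 and 286. None of 13 sperm ion channel genes (median 0.04) and none of 17 testis kinase and glycolytic isozyme genes (median -0.21) separated the genotypes, and of 15 testis histone genes 1 was lower, *H2afb1*, at under 0.5 RPKM. Of 26 meiotic prophase genes 1 was lower, *Msh5*, and the median was -0.2, or -0.52 and -0.38 in the later and earlier comparison. The list shares *Sycp1*, *Sycp3* and *Smc1b* with the primary spermatocyte markers given above. None of 15 spermatogonial genes separated the genotypes.

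Few complement genes other than *C3* separated the genotypes. Of 36 tested, 3 were higher without overlap and 0 lower, 0 passed an unadjusted limma p of 0.05, and the median log2 difference was 0.09. Over all genes 4.64% were higher without overlap. *C4a*, a complement component C4 gene, measured 2.82, 2 and 3.05 RPKM in wildtype 178, 351 and 648 and 4.87 and 5.57 in knockout 544 and 286. *Masp1* of the lectin pathway and the protease gene *C1s1* were under 1 RPKM throughout, and *C1s1* had at most 4 reads in any library on its best covered transcript, with 0.31 RPKM in knockout 544 and 0.331 in wildtype 178. In both like-with-like comparisons 2 of the 36 were higher, *Cd46* and *Cd59a*, membrane inhibitors of complement, and 0 lower. Over all genes with a mean of at least 1 RPKM, 1.02% were higher and 0.61% lower in both. *Cd46* measured 13.1, 6.97 and 0.053 RPKM in wildtype and 23.4 and 1.78 in knockout, and *Cd59a* 9.39, 7.65 and 0.306 RPKM in wildtype and 23.8 and 1.5 in knockout. For both inhibitors the late libraries were far above the early ones, so the genotypes overlapped over all 5.

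No gene of the stress and immune lists passed the adjusted threshold. Of 20 apoptosis genes 2 were higher (*Bcl2l2*, *Bbc3*) and 1 lower (*Casp9*, the initiator caspase, at 1.29 to 2.45 RPKM in wildtype and 0.642 and 1.14 in knockout), with a median of 0.04. Of 27 immediate early and heat shock genes 1 was higher (*Hsph1*) and 3 lower (*Atf3*, *Fos*, *Fosb*). *Atf3*, an early stress-response factor, measured 1.34, 0.6 and 0.815 RPKM in wildtype and 0.297 and 0.1 in knockout, a log2 difference of -1.89 with a standard error of 0.71. *Fosb*, a subunit of AP-1, measured 2.02, 1.04 and 1.40 RPKM in wildtype and 0.588 and 0.655 in knockout. Of 18 interferon and MHC genes 1 was higher (*Tap1*) and 1 lower (*Cd74*), with a median of -0.34, and of 23 proteasome and ubiquitin genes 1 was higher (*Psmb7*).

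Among somatic lists, 2 of 9 Leydig genes (*Cyp17a1*, *Hsd17b3*) and 2 of 12 macrophage genes (*Fcer1g*, *Cd68*) were lower without overlap and 0 higher (3.54% and 4.64% of all genes), with median log2 differences of -0.62 and -0.31. *Hsd17b3*, *Fcer1g* and *Cd68* had at most 7, 21 and 15 reads in any spermatid library on their best covered transcript, so these counts rest on few reads. None of 15 Sertoli genes, 14 peritubular, stromal and endothelial genes and 4 blood genes separated the genotypes. The Sertoli median was -0.62 in the later and 1.34 in the earlier comparison, the peritubular one -0.39 and 1.23, and the blood one -2.94 and 1.67, so these 3 lists changed sign with the knockout library compared.

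The leading genes were then read in libraries that had no part in their choice. In whole testis, *Grtp1* measured 3.71 and 4.11 RPKM in wildtype mice 178 and 648 and 0.113 to 0.55 in 5 knockout mice, a log2 difference of -3.95 with a standard error of 0.62 (unadjusted p 0.000113, limma adjusted p 0.645). In sorted secondary spermatocytes it measured 10.2 and 4.08 RPKM in wildtype and 0.098 to 0.24 in 3 knockout mice, a log2 difference of -4.98 with a standard error of 0.58 (limma adjusted p 0.497). In primary spermatocytes the knockout was split: mice 544 and 550 gave 0.094 RPKM each, but the libraries labelled knockout of mice 613 and 614 gave 15.8 and 13.7, against 20.03 and 5.01 in wildtype. The *Grtp1* levels of 613 and 614 were thus like those of wildtype, and no value here checks the genotype labels of these mice. Mice 178, 648, 286 and 544 gave several of these libraries, so they are not independent of the spermatid values. In spermatogonia, *Grtp1* was low in both genotypes, at 2.46 and 0.706 RPKM in wildtype and 0.574 and 0.644 in knockout.

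*Gm8730* was likewise low in most knockout libraries but not in the same exceptions. It measured 0.041 to 0.125 RPKM in 3 knockout secondary spermatocyte libraries against 35.6 and 9.02 in wildtype. In whole testis, knockout mice 214, 269 and 286 gave 0.144 to 0.279 RPKM, and knockout mice 273 and 308 gave 40.7 and 106, above the wildtype values of 29.3 and 12.7. In primary spermatocytes, knockout 613 gave 27.1 RPKM and knockout 614 gave 0.54, so the mouse with a high *Grtp1* and a low *Gm8730* (614) and those with the reverse (273 and 308) went different ways. *Defb11* was at 0 in all 5 knockout whole testes and at 0.477 and 0.356 RPKM in both wildtype ones, and at 0 in every primary spermatocyte library of either genotype.

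The higher genes *Slc26a10* and *Ins2* had RPKM values that overlapped between genotypes in each of these cell types and in whole testis. *Slc26a10* measured 0.46, 2.60 and 3.39 RPKM in knockout and 0.487 and 0.073 in wildtype secondary spermatocytes, which overlap. In whole testis its mean was 0.466 RPKM in both genotypes, a log2 difference of 0.35 with a standard error of 0.69, and in primary spermatocytes the log2 difference was 0.01. *Ins2* averaged 0.591 RPKM in 5 knockout and 0.772 in 2 wildtype whole testes, and its log2 difference in primary spermatocytes was 0.27 with a standard error of 1.4. *Mir410* was at 0.534 and 0 RPKM in 2 wildtype and 0.763 to 2.36 in 5 knockout whole testes, a log2 difference of 2.58 with a standard error of 0.69 (limma adjusted p 0.999), against 0.39 in secondary and -0.74 in primary spermatocytes. *Defa29* differed by 4.31 log2 units in secondary spermatocytes (standard error 0.88, limma adjusted p 0.74) and by 0.76 in whole testis (standard error 1.36).

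**Figure D5:**
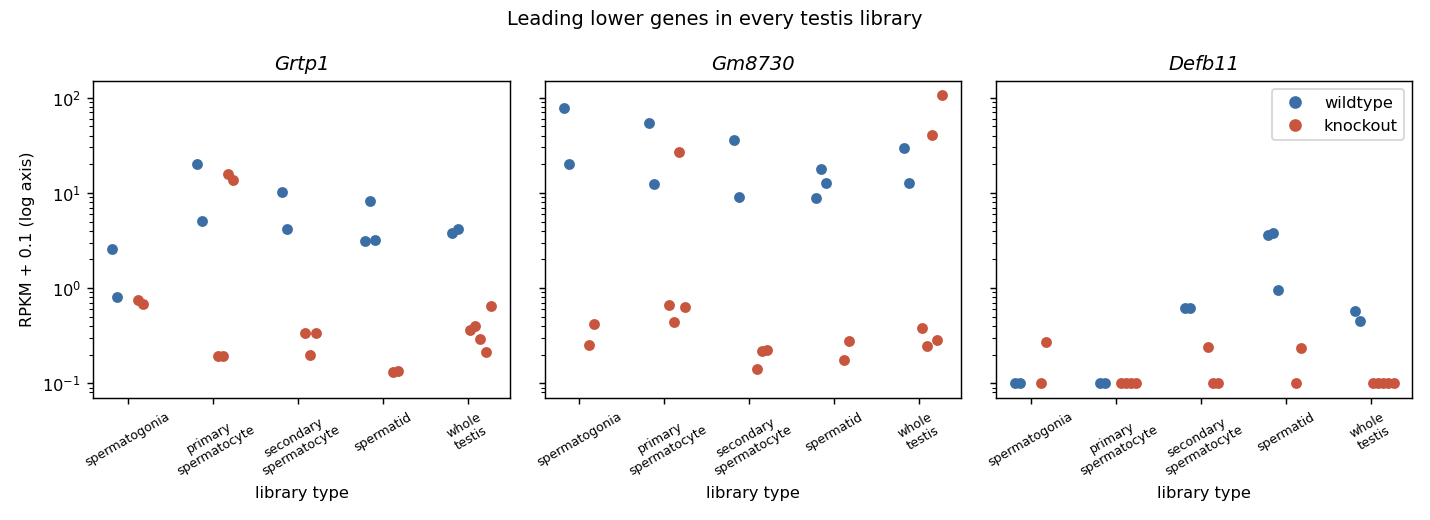
RPKM plus 0.1 on a log axis for *Grtp1*, *Gm8730* and *Defb11* in every sorted and whole testis library, by stage, wildtype in blue and knockout in red, 1 point per mouse. *Grtp1* is low in all knockout libraries of spermatids, secondary spermatocytes and whole testis but not in 2 of 4 knockout primary spermatocyte libraries, and *Gm8730* is high in 3 knockout libraries.

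The genes that differed in the same direction in both comparisons were followed in the same way. In secondary spermatocytes 114 of the 132 higher genes (86.4%) had a positive difference, against 47.8% of all 23140 genes tested there, and 14 of the 79 lower genes (17.7%). Among them 25 of the higher genes were higher at an unadjusted limma p under 0.05, where 3.31% of all genes were, and 22 of the lower genes were lower, where 2.69% were. In whole testis 96 of the higher genes (72.7%) and 16 of the lower (20.3%) had a positive difference, against 52.3% of all genes, and 4 and 6 passed in their own direction (2.43% and 0.957% of all genes). In primary spermatocytes the shares were 69.5% of 118 and 15.6% of 77, against 42.3%, and 4 and 13 passed (1.55% and 2.79% of all genes). Without the libraries of mice 613 and 614, left out for their *Grtp1* level after seeing the data, the shares were 76.4% of 110 and 17.1% of 76, against 50.6%. None passed a limma adjusted p of 0.05 in any of the 3 comparisons, and 0 of all genes did. The mice are shared between stages, so these shares do not stand for further animals. Late spermatid transcripts were also unequal between the genotypes there. *Prm2*, *Tnp1* and *Tnp2* differed by 4.74, 3.17 and 2.43 log2 units in primary spermatocytes and by 2.42, 1.6 and 1.16 in secondary. In whole testis they differed by -1.38, -2.41 and -0.97. Outside primary spermatocytes each standard error exceeded the difference. The part of such step differences in the shares was not tested.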

How the data were processed

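RNA-seq reads were mapped by the authors with TopHat2 to Ensembl transcripts, and the deposited table holds their RPKM per transcript. The study's own tests used PoissonSeq after PEER and quantile normalization; only the last was applied here. In the 5 spermatid columns 94.2 to 94.4% of low values of short transcripts fell within 0.06 of a whole read, against 12% by chance, which gives the depths. The column of mouse 613 does not, so its depth is unknown. No count model was fitted.

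Of 94480 transcripts 90432 matched GENCODE M21 (95.7%), and 89664 with a value in every library of known depth were summed into 37086 genes. Genotypes came from the labels. Genes with a mean of at least 0.1 RPKM were tested with limma 3.58.1 (lmFit, eBayes with trend; R 4.3.3) on quantile-normalized log2(RPKM + 0.1), with Benjamini-Hochberg adjustment over all genes. "Without overlap" refers to these normalized values. Like-with-like differences needed 1 log2 unit and a mean of 1 RPKM, with *Csmd1* and *C3* left out. Permutation tests used scipy 1.17.1 in Python 3.11.15. The fit was run on simulated data with the same spread for every gene and no *Prm1* classes. These libraries differ in both, so that run does not show how the fit performs on them. Fold differences on this scale understate those of low genes.

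Named genes are the 10 in each direction with the smallest p at a mean of 1 RPKM or more, the 12 with the larger like-with-like differences, list members and flanking genes. Members and lists were chosen with earlier results of these data known. One gene of the complement list is not reported here.

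The mouse number in the labels pairs the stages. Between stages, residuals correlated within a mouse at a median r of 0.54 (-0.26 to 0.76 over 22 pairs) and between mice at -0.04 (151 pairs).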

Additional observations from a re-analysis of the deposited data

Results flagged for a closer look

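Of 9 groups of 4 or 5 libraries checked for a library far from the others, among the leading genes, 1 stood out, where chance gives about 1 in 20. *Gm8730* in primary spermatocytes measured 27.1 RPKM in knockout mouse 613 and 0.345 to 0.57 in the other 3 knockout mice. That library is also the one whose values do not fall on whole reads, and the part of this in the value was not tested.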

How the results depend on the processing

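The number of genes past a limma adjusted p of 0.05 was 0 with 5 libraries, with either other pseudocount, with a filter at 1 RPKM, on deposited values, with the top transcript, with the *Prm1* class as a term and without each library in turn (0 to 0). It was 18 with no filter, all higher in the knockout, in a fit of 37086 genes that also held those with a mean under 0.1 RPKM. The levels and reads of these 18 were not examined, so they are not read as raised genes. In that fit *Gm8730* had a limma adjusted p of 0.295. The number was 1 (*Defb11*, -4.23, adjusted p 0.0436) in a fit of all 20 sorted libraries without a block. With the mouse as replicate block it was 0 (smallest adjusted p 0.116, block correlation 0.418). Genes higher and lower in both like-with-like comparisons numbered 215 and 44 on deposited values, 45 and 20 at a pseudocount of 1, 12 and 6 at a difference of 2, 321 and 190 at a mean of 0.1 RPKM, and 146 to 232 and 94 to 127 without a wildtype library of the later set. Of the 215 and 44, 116 and 39 were among the 132 and 79. List medians that moved by more than the wildtype spread were, in the later and earlier comparison, -0.62 and 1.34 for Sertoli, -0.39 and 1.23 for peritubular, -2.94 and 1.67 for blood and -1.26 and 0.67 for mitochondrial genes. In the earlier one alone they were -0.65 for macrophage, 0.72 for apoptosis and 0.92 for strain genes. Flanking genes moved to 0.05 on deposited values, and those within 5 Mb from -0.18 to 0.02 and, in the later comparison, to -0.03. The cause was not tested. The 20 genes named by p kept their direction in every alternative. They were chosen in these same libraries and separate the genotypes without overlap. Leaving out a library could thus hardly reverse them, and the kept direction is no support. In libraries that lack values for the same transcripts (286 against 178 and 351) *Grtp1* differed by -5.41, *Gm8730* by -6.37 and *Defb11* by -5.2. *Slc26a10* at 2.38, *Ins2* at 2.64 and *Defa29* at 3.36 differed by less there than over all 5 libraries (3.78, 3.94 and 4.18). So did *Uros* at 1.08, *Matk* at 1.16, *Mir410* at 1.97 and *Gm17178* at 1.65 (1.79, 2.43, 2.25 and 1.8). Of the lower genes, *mt-Ti* at -1.11 and *mt-Tc* at -0.95 differed by less (-3.22 and -2.57). *Il15ra* at 4.54, *Dtx1* at 2.14 and the pseudogene *Olfr1372-ps1* at 2.68 differed by more (3.63, 1.89 and 2.15). So did *Cyp17a1* at -2.78, *Cd74* at -4.33, *Rps15a-ps5* at -3.96 and *Med22* at -1.63 (-2.01, -2.96, -2.97 and -1.49). These libraries cross the *Prm1* classes.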
